A study of Mus musculus with 6 samples.

Results

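The genes described here encode the folding, quality-control and degradation machinery of the endoplasmic reticulum (ER), together with the stress sensors that regulate it. They are 44 genes, chosen by symbol from the 55401 genes of the deposited table by a rule that does not use their measured values, though the set was proposed with earlier results of these data known. Each symbol matched 1 row. RNA was sequenced from mouse cells of wild-type genotype, labelled as bone marrow-derived macrophages (BMDM). There were 3 samples given neutrophil extracellular traps (NETs), which are chromatin fibres carrying granule proteins that neutrophils expel, and 3 samples without them, called control here. The sample titles carry the name BV2, which is a mouse microglial line, so the labels do not settle which cells were used. Neither a dose nor a time is stated for the NETs. No label says that the replicates were independent cultures or mice, and p-values here refer to the spread among these 6 samples, which may be technical.

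Secreted and membrane proteins enter the ER through the Sec61 channel, where their signal peptide is removed and chaperones, lectins and disulfide enzymes fold them. Proteins that fail to fold are sent back to the cytosol and destroyed by the proteasome, a route called ER-associated degradation. When unfolded proteins accumulate, the sensors IRE1, PERK and ATF6 start the unfolded protein response, in which the transcription factors XBP1 and ATF6 raise the expression of many of these chaperones and degradation factors. In macrophages the machinery serves the secretion of cytokines and the surface display of receptors.

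Total counts ran from 39994613 to 44274445 per library. All 10 macrophage markers examined had counts in the deposited libraries. Their summed levels were 6177 to 6331 CPM (counts scaled to library size) in control and 10678 to 10909 CPM in NETs-treated libraries. Aif1 was near the floor, with means of 0.672 CPM in control and 0.492 CPM in NETs-treated libraries. Of these 10 genes 6 were lower and 2 higher, and most of the higher sum came from Cd14, at 691 CPM in control and 5442 CPM in NETs-treated cells. Among microglial markers, Sall1 had no count in any library, and P2ry12, Tmem119, Siglech, Olfml3, Cx3cr1 and Gpr34 had group means between 0 and 5.04 CPM. Of 12 neutrophil markers, Ltf, Ly6g, Mpo, Ngp, Retnlg and S100a9 had no count in any library, and the summed level was 6.52 to 8.57 CPM in control and 10.9 to 16.8 CPM in NETs-treated libraries. Most of that higher sum was S100a8, a calcium-binding protein gene, which rose from 2.68 ± 0.591 to 11.7 ± 2.67 CPM (edgeR adjusted p = 0.000131). The 5 T and NK cell markers had no count in any library, and the 6 fibroblast markers summed to at most 0.0930 CPM. Plasma and B cell markers summed to 20.9 to 24.6 CPM in control and 21.1 to 24.8 CPM in NETs-treated libraries, nearly all of it Sdc1, with Ms4a1 at 0, and dendritic cell markers to 4.90 to 5.44 and 4.30 to 5.61 CPM. Ribosomal protein genes took 4.88 to 5.09% of the counts in control and 5.57 to 5.73% in NETs-treated libraries. The part of these differences in the results below was not tested.

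The RefSeq promoter windows (GRCm38.p6, 250 bases before to 50 bases after the start site) were searched on both strands for 3 elements known from the unfolded protein response. These were the ER stress element ERSE (CCAAT followed after 9 free bases by CCACG), ERSE-II (ATTGG followed after 1 free base by CCACG) and the core of the XBP1 element UPRE (TGACGTGG). The end of the UPRE core is the reverse complement of CCACG, so a match to it can overlap one of the others. A window was found for 38 of the 44 genes. It held ERSE in 10 of them, against 37 of 27025 genes with a window in the whole table (0.137%), and ERSE-II in 2 of them, against 12 genes in the table (0.0444%). The UPRE core matched none of the 38 windows and 0.714% of all genes. The 12 genes with ERSE or ERSE-II were Calr, Canx, Creld2, Derl3, Dnajb11, Dnajc3, Ero1lb, Herpud1, Hsp90b1, Hspa5, Pdia6 and Syvn1. A match describes the letters of the window and is not a measured binding site.

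The windows of 6 of these genes are printed 5′ to 3′ on the strand of the gene, with the fixed letters of each match in capitals. They are shown because Hspa5, Hsp90b1, Calr, Herpud1 and Dnajc3 are among the genes with the strongest decrease or the highest level, and Canx carries a match but did not pass the test. The windows lie at chr2:34771840-34772139 (plus strand) for Hspa5, chr10:86705395-86705694 (minus strand) for Hsp90b1, chr8:84846882-84847181 (minus strand) for Calr, chr8:94386179-94386478 (plus strand) for Herpud1, chr14:118937682-118937981 (plus strand) for Dnajc3 and chr11:50325624-50325923 (minus strand) for Canx. Hsp90b1 has an ERSE on each strand, Calr has it on the opposite strand, and Herpud1 has ERSE-II.
Hspa5: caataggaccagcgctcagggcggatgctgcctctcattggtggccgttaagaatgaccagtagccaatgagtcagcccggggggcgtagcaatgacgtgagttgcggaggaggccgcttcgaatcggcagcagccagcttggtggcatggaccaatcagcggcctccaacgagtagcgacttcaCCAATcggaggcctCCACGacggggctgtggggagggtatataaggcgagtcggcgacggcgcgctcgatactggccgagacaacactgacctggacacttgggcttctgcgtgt
Hsp90b1: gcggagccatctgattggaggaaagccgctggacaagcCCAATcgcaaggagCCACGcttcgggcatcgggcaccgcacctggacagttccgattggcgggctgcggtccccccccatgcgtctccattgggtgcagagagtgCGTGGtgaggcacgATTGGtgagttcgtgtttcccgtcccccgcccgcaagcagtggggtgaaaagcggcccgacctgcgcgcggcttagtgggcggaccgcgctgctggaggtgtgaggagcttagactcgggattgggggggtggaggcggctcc
Calr: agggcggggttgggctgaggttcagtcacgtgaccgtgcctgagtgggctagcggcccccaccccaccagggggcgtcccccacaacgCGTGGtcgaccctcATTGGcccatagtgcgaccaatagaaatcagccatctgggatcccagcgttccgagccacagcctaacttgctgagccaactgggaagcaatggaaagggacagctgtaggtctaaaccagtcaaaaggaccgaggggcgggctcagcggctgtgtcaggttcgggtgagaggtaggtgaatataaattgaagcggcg
Herpud1: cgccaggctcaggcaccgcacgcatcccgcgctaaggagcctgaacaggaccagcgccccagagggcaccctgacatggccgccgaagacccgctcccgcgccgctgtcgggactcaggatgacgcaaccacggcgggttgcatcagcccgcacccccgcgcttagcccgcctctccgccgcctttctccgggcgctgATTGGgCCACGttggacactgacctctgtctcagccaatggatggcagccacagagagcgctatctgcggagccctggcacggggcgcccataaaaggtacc
Dnajc3: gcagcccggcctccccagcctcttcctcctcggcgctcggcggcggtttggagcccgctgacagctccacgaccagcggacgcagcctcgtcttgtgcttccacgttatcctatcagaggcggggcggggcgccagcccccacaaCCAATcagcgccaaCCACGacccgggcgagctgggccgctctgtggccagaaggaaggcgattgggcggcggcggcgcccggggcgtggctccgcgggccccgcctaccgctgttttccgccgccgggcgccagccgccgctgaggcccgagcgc
Canx: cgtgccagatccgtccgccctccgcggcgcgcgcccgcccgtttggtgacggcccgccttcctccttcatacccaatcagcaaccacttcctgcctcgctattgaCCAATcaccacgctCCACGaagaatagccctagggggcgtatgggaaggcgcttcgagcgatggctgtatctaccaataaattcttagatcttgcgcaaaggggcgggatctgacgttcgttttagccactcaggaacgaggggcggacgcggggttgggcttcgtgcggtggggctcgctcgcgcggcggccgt

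The question was whether the transcripts of the ER machinery differed between NETs-treated and control cells, and whether sensors, chaperones, disulfide enzymes, degradation and translocation factors differed in the same way. Most of the set was lower in NETs-treated cells. Of the 44 genes, 43 had enough counts to be tested, and 32 were called in either direction, against 52.7% of all genes tested. Of these 27 fell and 5 rose (quasi-likelihood test of edgeR, Benjamini-Hochberg adjusted p under 0.05 over all 15272 genes tested, n = 3 per group). Among all genes tested, 27.2% were called lower and 25.5% higher. The median log2 fold change was -0.56 over the 43 genes and -0.02 over all genes tested. At least a 2-fold decrease was called for 15 of the 43, against 11.9% of all genes tested, and at least a 2-fold increase for 1, against 7.39%. In 31 of the 43 genes every control library lay above every NETs-treated library, against 32.5% of all genes tested, and in 6 every NETs-treated library lay above, against 29.9%. The groups thus did not overlap for 37 of the 43, against 62.4% of all genes tested. In bulk samples, fewer cells of a type and less RNA per cell cannot be told apart.

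**Figure D1:**
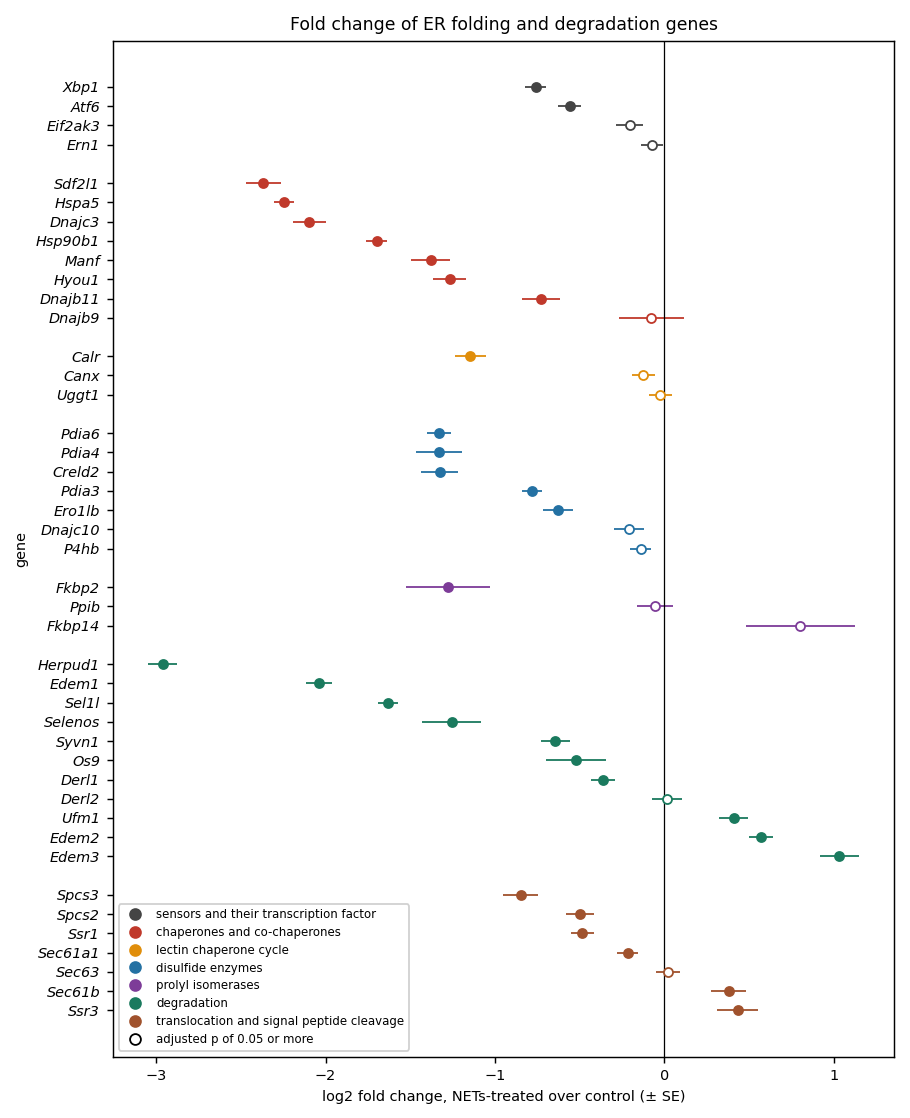
Log2 fold change of NETs-treated over control cells (x axis) for the 43 tested genes (y axis), coloured by role, with the SE from edgeR as bars; open circles did not pass an adjusted p of 0.05. Herpud1 lies farthest to the left at -2.96 and Edem3 farthest to the right at 1.03, and 7 of 8 chaperone and co-chaperone genes are filled and left of 0.

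Summed over the 44 genes, the level was 12091, 12410 and 12372 CPM in the control libraries and 6106, 6139 and 6306 CPM in the NETs-treated ones. The groups did not overlap. The mean was 1.99-fold lower in NETs-treated cells. Without Hspa5 the sums were 9140 to 9331 CPM in control and 5501 to 5626 CPM in NETs-treated libraries. By role, the summed level was 3.77-fold lower for chaperones and co-chaperones, 1.99-fold lower for degradation factors, 1.49-fold lower for disulfide enzymes, 1.47-fold lower for the lectin cycle, 1.44-fold lower for the sensors with Xbp1, 1.19-fold lower for translocation factors and 1.11-fold lower for prolyl isomerases. These sums weigh the most abundant genes most, and no test was made of the differences between roles.

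Chaperones and co-chaperones had the lowest median log2 fold change of the roles, -1.54, with 7 of 8 genes lower. The share called lower over all genes tested was 27.2%. Hspa5 encodes BiP, the Hsp70 chaperone of the ER lumen, which also holds the stress sensors in check. Its level was 2951, 3079 and 3078 CPM in the control and 602, 638 and 680 CPM in the NETs-treated libraries. All control libraries lay far above the NETs-treated ones, and the log2 fold change was -2.25 ± 0.06 (SE; edgeR adjusted p = 1.29e-07), a 4.74-fold decrease. Hspa5 (ENSMUSG00000026864.13) spans 34771970 to 34777547 on chromosome 2 in GRCm38. It made up 24.4 to 24.9% of the summed level of the 44 genes in control and 9.87 to 10.8% in NETs-treated libraries.

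Hsp90b1 encodes GRP94, the Hsp90 of the ER, which folds integrins and Toll-like receptors. The control libraries had 1004, 1084 and 1093 CPM and the NETs-treated libraries 314, 338 and 327 CPM, without overlap. It fell 3.24-fold (log2 fold change -1.70 ± 0.06, edgeR adjusted p = 3.84e-07). The gene (ENSMUSG00000020048.13) spans 86690209 to 86705509 on chromosome 10, and its exons overlap those of Gm15344 and Gm25745 on its strand.

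Sdf2l1, a partner of BiP co-chaperones that keeps their clients soluble, had the largest decrease of this role. It was at 91.2, 83.1 and 80.2 CPM in control, against 18.0, 14.4 and 16.9 CPM in NETs-treated libraries. The log2 fold change was -2.37 ± 0.10 (edgeR adjusted p = 9.05e-07), and the gene (ENSMUSG00000022769.9) spans 17130138 to 17132383 on chromosome 16. Dnajc3, which encodes the co-chaperone p58IPK, an inhibitor of PERK, fell from 99.6 ± 4.06 to 23.3 ± 2.51 CPM (SD, n = 3 each). Manf, which encodes a small secreted protein that binds BiP, had a log2 fold change of -1.38 ± 0.12, and Hyou1, the nucleotide exchange factor of BiP, of -1.27 ± 0.10. The exons of Manf overlap those of Rbm15b on the same strand, so the share of reads that belongs to each is uncertain.

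Dnajb11 and Dnajb9 encode J-domain co-chaperones that bring BiP to its clients. Dnajb11 fell with a log2 fold change of -0.73 ± 0.11. Dnajb9, whose product also binds IRE1, was at 50.7, 58.5 and 59.5 CPM in control, against 38.1, 51.9 and 69.9 CPM in NETs-treated libraries. Its groups overlapped, with NETs-treated replicate 1 the lowest and replicate 3 the highest of the 6 libraries, and its log2 fold change was -0.08 ± 0.19 (edgeR adjusted p = 0.756). Among the chaperone genes it was thus the one that did not pass.

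The lectin cycle holds glycoproteins in the ER until they are folded. Its soluble lectin gene Calr (calreticulin) fell, while the values of the membrane lectin gene Canx (calnexin) and of Uggt1, the sensor that marks unfolded glycoproteins for another round, did not pass. Calr had 771, 752 and 740 CPM in the control and 386, 340 and 297 CPM in the NETs-treated libraries. Every control library was above every NETs-treated one, and the log2 fold change was -1.15 ± 0.09 (edgeR adjusted p = 2.05e-05). Calr (ENSMUSG00000003814.8) spans 84841850 to 84846934 on chromosome 8.

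Canx was at 499, 542 and 542 CPM in control, against 456, 511 and 486 CPM in NETs-treated libraries. Only NETs-treated replicate 2 reached into the control range, and the log2 fold change was -0.12 ± 0.07 (edgeR adjusted p = 0.154). With scaling by library size only, Canx was called lower at an adjusted p of 0.0322 in edgeR. Uggt1 had 158, 166 and 169 CPM in control and 154, 158 and 173 CPM in NETs-treated libraries, which overlapped, with a log2 fold change of -0.02 ± 0.07. Whether Calr differed from Canx in its change was not tested.

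**Figure D2:**
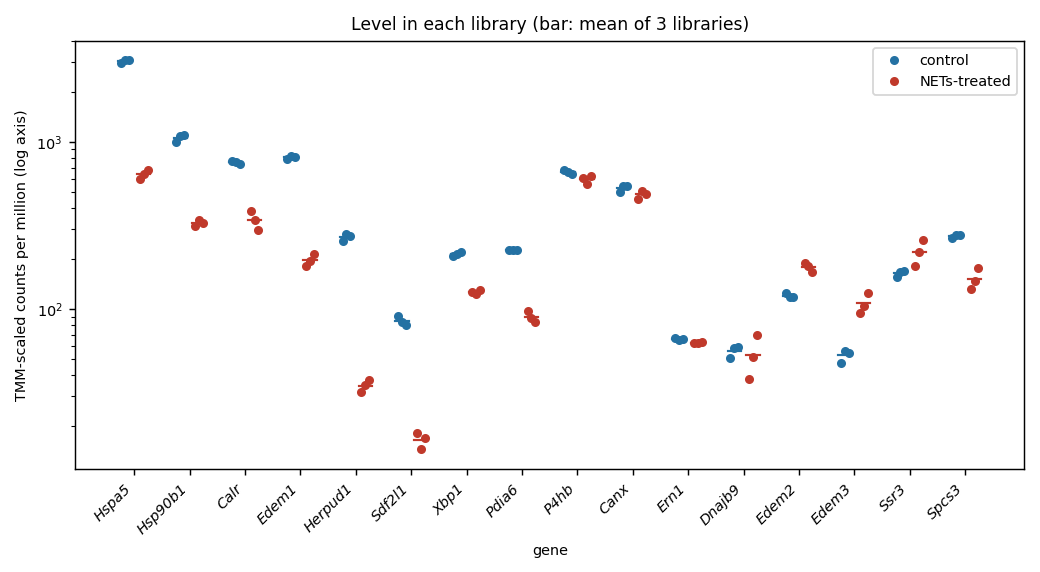
Level of selected genes (x axis) in each library, in TMM-scaled CPM on a log axis; points are the 3 control (blue) and 3 NETs-treated (red) libraries and short bars their means. Hspa5, Herpud1 and Edem1 separate widely, P4hb, Canx and Ern1 lie close together, and Edem2, Edem3 and Ssr3 are higher in NETs-treated libraries.

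Of the 7 disulfide enzyme genes, 5 fell, against 27.2% called lower among all genes tested. The median over all 7 was -0.78 on the log2 scale. Pdia6, Pdia4 and Creld2 had the same log2 fold change to the digits given. Pdia6, a protein disulfide isomerase that also acts on the stress sensors, was at 226, 226 and 227 CPM in control, against 96.8, 88.8 and 84.1 CPM in NETs-treated libraries. The SD over the control libraries was 0.107% of their mean, the groups were well apart, and the log2 fold change was -1.33 ± 0.07 (edgeR adjusted p = 2.42e-06). Pdia6 (ENSMUSG00000020571.13) spans 17266545 to 17284770 on chromosome 12. The isomerase gene Pdia4, whose exons overlap Mir704 on the same strand, had a log2 fold change of -1.33 ± 0.14, and Creld2, which encodes a secreted isomerase-like protein, of -1.33 ± 0.11.

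Pdia3 encodes ERp57, the isomerase that works with calreticulin and calnexin, and it fell from 585 ± 17.6 to 341 ± 12.9 CPM. Ero1lb, an oxidase that recharges the isomerases, had a log2 fold change of -0.63 ± 0.09. P4hb, the founding protein disulfide isomerase and also a subunit of the collagen prolyl hydroxylase, had 674, 657 and 645 CPM in control and 609, 560 and 627 CPM in NETs-treated libraries. The groups lay close but did not overlap, and the log2 fold change of -0.14 ± 0.06 missed the threshold (edgeR adjusted p = 0.0909). Dnajc10, a reductase that opens disulfides before degradation, was at 113, 111 and 121 CPM in control, against 89.5, 98.5 and 110 CPM in NETs-treated libraries, with a log2 fold change of -0.21 ± 0.09 (edgeR adjusted p = 0.0741). Both were called lower in edgeR with scaling by library size only, at adjusted p = 0.0207 for P4hb and 0.0257 for Dnajc10, and without NETs-treated replicate 3, at 0.0268 and 0.0163.

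The prolyl isomerases speed the turning of proline bonds. Fkbp2 fell, with 33.1, 28.2 and 26.6 CPM in control and 17.7, 9.90 and 8.68 CPM in NETs-treated libraries. NETs-treated replicate 1 stood well above the other two, though below all controls, and the log2 fold change was -1.28 ± 0.25 (edgeR adjusted p = 0.00271). This gene (ENSMUSG00000056629.16) spans 6977741 to 6980501 on chromosome 19. Ppib, which encodes cyclophilin B, was at 233, 212 and 200 CPM in control, against 240, 196 and 185 CPM in NETs-treated libraries. Those ranges overlapped, and its log2 fold change was -0.06 ± 0.11. Fkbp14, a collagen-associated isomerase gene, was near the lower limit of the test, with 2.02, 1.69 and 1.15 CPM in control and 2.19, 3.64 and 2.66 CPM in NETs-treated libraries. Its log2 fold change of 0.80 ± 0.32 did not pass (edgeR adjusted p = 0.0646), but was called higher by the Wald test of DESeq2 (adjusted p = 0.0461) and in edgeR without NETs-treated replicate 1 (adjusted p = 0.0368).

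Degradation factors moved in both directions. Of 12 genes, 11 could be tested, of which 7 were lower and 3 higher, with a median log2 fold change of -0.52. Among all genes tested, 27.2% were called lower and 25.5% higher. Herpud1, a membrane protein that assembles the degradation complex, had the largest decrease of all 43 genes. It was at 256, 280 and 275 CPM in control, against 31.6, 35.2 and 37.4 CPM in NETs-treated libraries. The groups were far apart, and the decrease was 7.79-fold (log2 fold change -2.96 ± 0.09, edgeR adjusted p = 1.47e-07). Herpud1 (ENSMUSG00000031770.16) spans 94386438 to 94395377 on chromosome 8.

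Edem1, a lectin-like factor that directs misfolded glycoproteins to destruction, was at 788, 823 and 811 CPM in control, against 181, 194 and 214 CPM in NETs-treated libraries. It fell 4.11-fold (log2 fold change -2.04 ± 0.08). Its relatives Edem2 and Edem3, mannosidases that trim the sugars of such proteins, rose. Edem2 was at 124, 118 and 119 CPM in control, against 189, 180 and 166 CPM in NETs-treated libraries. All NETs-treated libraries lay above all controls, and the log2 fold change was 0.57 ± 0.07 (edgeR adjusted p = 0.000246). In control Edem3 had 47.6, 56.2 and 54.2 CPM, and with NETs 94.5, 104 and 125 CPM. Its groups did not overlap either, and it rose by 1.03 ± 0.12 on the log2 scale (edgeR adjusted p = 0.000123). It was the 1 gene of the set that rose at least 2-fold. Edem1 (ENSMUSG00000030104.9) spans 108828641 to 108859356 on chromosome 6, Edem2 (ENSMUSG00000038312.10) spans 155701677 to 155729475 on chromosome 2, and Edem3 (ENSMUSG00000043019.12) spans 151755371 to 151822051 on chromosome 1.

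Of the other genes of the membrane complex, Sel1l, Syvn1, Selenos and Derl1 fell, and Derl2 did not pass. Sel1l, the scaffold of the ubiquitin ligase, fell from 389 ± 5.42 to 125 ± 2.22 CPM, and its ligase partner Syvn1, which encodes HRD1, had a log2 fold change of -0.64 ± 0.09. Selenos, a selenoprotein that recruits the ATPase that pulls proteins from the membrane, had -1.26 ± 0.17, and Derl1, a rhomboid-like component of the exit channel, had -0.36 ± 0.07. Derl2, a close relative, was at 70.2, 78.2 and 76.3 CPM in control, against 72.5, 71.0 and 83.9 CPM in NETs-treated libraries. Its groups overlapped, and the log2 fold change was 0.02 ± 0.09. Derl3 had 2 counts in control replicate 1 and none in the other libraries, so it was at the limit of detection in both groups and was not tested.

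Os9, a lectin that selects substrates for the ligase, had 67.1, 58.6 and 60.7 CPM in control and 54.9, 43.3 and 31.4 CPM in NETs-treated libraries. Its log2 fold change was -0.52 ± 0.18 (edgeR adjusted p = 0.0348), and this call lay close to the threshold. It was lost without control replicate 1, 2 or 3, at adjusted p = 0.114, 0.0639 and 0.0778, without NETs-treated replicate 2, at 0.0906, and with no filter on low counts, at 0.0779. Ufm1, a ubiquitin-like modifier that acts on ribosomes at the ER, rose from 82.1, 98.7 and 92.8 CPM to 117, 121 and 124 CPM. All NETs-treated libraries exceeded all controls, and the log2 fold change was 0.41 ± 0.08 (edgeR adjusted p = 0.0033).

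Translocation and signal peptide genes were mixed in direction, with 4 of 7 lower and 2 higher, around a median log2 fold change of -0.22. The shares over all genes tested were 27.2% lower and 25.5% higher. Spcs3, a subunit of the signal peptidase, had the largest change, from 264, 279 and 278 CPM in control to 132, 148 and 177 CPM in NETs-treated libraries. Its log2 fold change was -0.85 ± 0.10 (edgeR adjusted p = 0.000207), and the gene (ENSMUSG00000054408.9) spans 54520433 to 54529998 on chromosome 8. Spcs2, another subunit, had -0.50 ± 0.08, and Ssr1, a subunit of the translocon-associated complex, had -0.48 ± 0.07. Another subunit of that complex, Ssr3, rose from 154, 167 and 168 CPM to 180, 220 and 260 CPM (log2 fold change 0.43 ± 0.12; edgeR adjusted p = 0.0164). The groups did not overlap, but the call was lost without control replicate 1, at an adjusted p of 0.0668.

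The channel subunits Sec61a1 and Sec61b were called in opposite directions. Sec61a1, the pore-forming subunit, fell from 229 ± 4.55 to 197 ± 7.38 CPM (log2 fold change -0.22 ± 0.06, edgeR adjusted p = 0.0167). This call was lost without control replicate 1, 2 or 3, at adjusted p = 0.0609, 0.051 and 0.0592, and without NETs-treated replicate 2, at 0.111. Sec61b, a small subunit, rose from 15.4, 15.0 and 16.2 CPM to 20.8, 20.9 and 19.0 CPM (log2 fold change 0.38 ± 0.10; edgeR adjusted p = 0.0127), and without control replicate 2 the adjusted p was 0.0567. Sec63, which couples the channel to BiP, had 130, 133 and 129 CPM in control and 123, 138 and 137 CPM in NETs-treated libraries. Those values overlapped, with a log2 fold change of 0.02 ± 0.07.

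Of the sensors and their transcription factor, Xbp1 and Atf6 fell. Xbp1 had 207, 214 and 220 CPM in control and 126, 123 and 129 CPM in NETs-treated libraries. The groups were well separated, and the log2 fold change was -0.76 ± 0.06 (edgeR adjusted p = 2.2e-05). Counts per gene do not part the spliced from the unspliced Xbp1 transcript, so they give no measure of IRE1 activity. Xbp1 (ENSMUSG00000020484.19) spans 5520659 to 5525893 on chromosome 11. Atf6 fell from 234 ± 8.29 to 159 ± 8.65 CPM (log2 fold change -0.56 ± 0.07).

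Ern1, which encodes the sensor IRE1, was at 66.7, 65.4 and 66.1 CPM in control, against 62.3, 62.8 and 63.5 CPM in NETs-treated libraries. All controls lay above all NETs-treated libraries by a small margin, and the log2 fold change of -0.07 ± 0.06 did not pass (edgeR adjusted p = 0.382). Eif2ak3, which encodes PERK, had 43.3, 46.4 and 43.9 CPM in control and 41.2, 38.4 and 36.1 CPM in NETs-treated libraries, again without overlap. Its log2 fold change of -0.21 ± 0.08 missed the threshold (edgeR adjusted p = 0.0625), and it was called lower in edgeR with scaling by library size only (adjusted p = 0.0179), with upper-quartile scaling (0.047) and without NETs-treated replicate 1 (0.0324).

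Levels between genes were compared per kilobase of exon (RPKM). In control cells Hspa5 led with 718 ± 17.5 RPKM, followed by Hsp90b1 with 263 ± 12.2 and Calr with 262 ± 5.33 RPKM, which did not differ beyond their spread, and by P4hb with 230 ± 5.0 RPKM. In NETs-treated cells P4hb was first with 209 ± 12.1 RPKM, ahead of Hspa5 with 151 ± 9.22, Calr with 118 ± 15.4 and Pdia3 with 109 ± 4.10 RPKM. The ranges of mean ± SD of Calr, Pdia3 and Canx, the last with 103 ± 5.88 RPKM, overlapped. Herpud1 went from rank 7 in control, at 116 RPKM, to rank 30, at 14.9 RPKM, and Sdf2l1 from rank 10 to rank 31. The sensor genes Ern1 and Eif2ak3 were at 8.08 and 7.39 RPKM in control, among the lowest of the set.

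**Figure D3:**
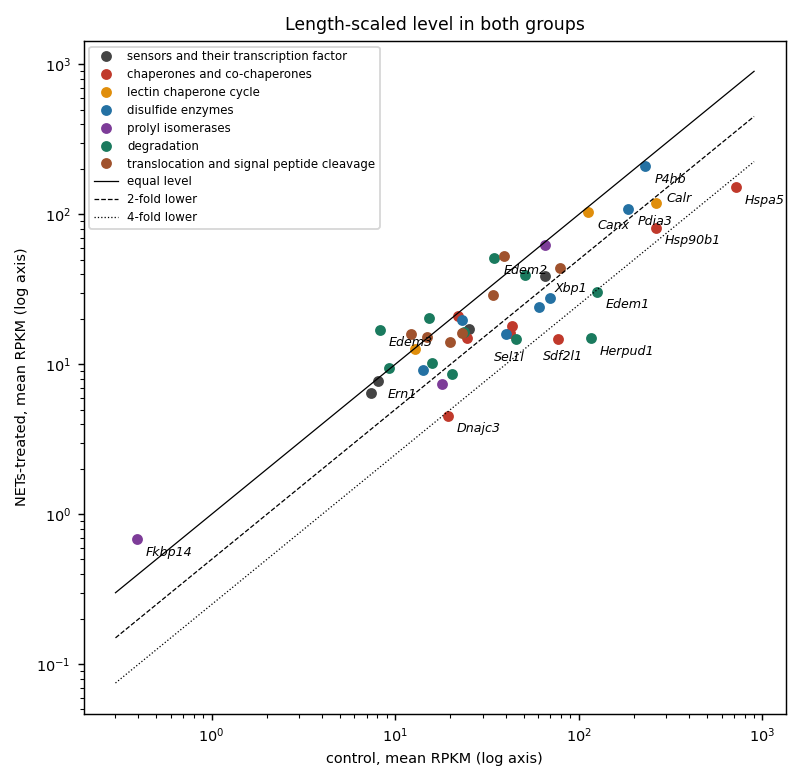
Mean length-scaled level of the 43 tested genes in control (x axis) and NETs-treated cells (y axis), in RPKM on log axes, coloured by role; lines mark an equal level and a 2-fold and a 4-fold decrease. Hspa5, Sdf2l1, Herpud1, Edem1 and Dnajc3 lie at or below the 4-fold line, and P4hb, at 230 and 209 RPKM, lies next to the line of equal level.

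The 11 tested genes with ERSE or ERSE-II in the promoter window had a median log2 fold change of -1.33. Of these, 10 fell, and Canx did not pass. Among the 26 tested genes with a window but neither element, the median was -0.17, with 11 lower and 5 higher. In the whole table, 30.7% of the tested genes with a window were called lower, with a median of -0.05. Outside the set, 14 tested genes held ERSE or ERSE-II, and 4 were lower and 4 higher, with a median of 0.09. The genes Sdf2l1 and Edem1, which fell strongly, had a window without these letters, which says nothing about other elements or other positions. No test was made of these differences.

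Other genes of ER proteostasis were examined by lists, of which 134 genes could be tested. Of these, 44 were lower and 38 higher in edgeR, with a median log2 fold change of -0.07, where among all genes tested 27.2% were called lower and 25.5% higher. With scaling by library size only, 56 were lower and 30 higher, and over all genes 4636 were lower and 3351 higher. Under that scaling 65.1% of the calls in the lists were lower, against 58.0% of the calls over all genes. Vesicle export and retrieval genes had 12 of 29 higher and 7 lower, with a median of 0.07, among them Sar1a, the GTPase that starts COPII budding, at a log2 fold change of 0.87 ± 0.08, and the coat gene Sec23a with 0.85 ± 0.09. Sec13, of the same coat, had 0.58 ± 0.08. Lman2, a cargo receptor gene, and Cope, a COPI coat gene, went the other way with -0.62 ± 0.08 and -0.58 ± 0.11.

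The other disulfide enzyme genes had 5 of 12 lower and 1 higher, where the shares over all genes tested were 27.2% and 25.5%. Txndc11 fell with a log2 fold change of -1.13 ± 0.10, Erp29 with -1.12 ± 0.07, Pdia5 from 18.0 ± 2.39 to 8.97 ± 0.930 CPM and Txndc5 with -0.72 ± 0.09, while Tmx2 rose with 0.34 ± 0.09, a call lost without control replicate 1 (edgeR adjusted p = 0.0547). The other chaperones and isomerases had 6 of 15 lower and 4 higher. Sil1, a nucleotide exchange factor of BiP, fell with -1.16 ± 0.17, Dnajb14 with -1.30 ± 0.13 and Cnpy3, a partner of GRP94, with -1.11 ± 0.16, whereas the Hsp70-like gene Hspa13 rose with 1.25 ± 0.13 and Calu, which encodes the calcium-binding protein calumenin, with 0.93 ± 0.07.

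Among other degradation and ufmylation genes 9 of 26 were higher and 6 lower. For this and the next lists, the shares over all genes tested were 25.5% higher and 27.2% lower. The ubiquitin-conjugating enzyme gene Ube2g2 rose by 1.15 ± 0.08 on the log2 scale. In the UFM1 ligase complex 3 genes fell, Ddrgk1 with -1.42 ± 0.18, Ufl1 with -0.94 ± 0.13 and Cdk5rap3 with -0.94 ± 0.11, while Ufm1 itself rose. Translocation, cleavage and N-glycosylation genes had 13 of 36 lower and 8 higher. The oligosaccharyltransferase subunit gene Dad1 rose with 1.02 ± 0.11 and the signal peptidase subunit gene Spcs1 with 0.68 ± 0.11, whereas Magt1 fell with -0.89 ± 0.10, the glucosidase gene Mogs with -0.80 ± 0.12 and Srp54a, of the signal recognition particle, with -0.73 ± 0.16. Of 16 tested stress signalling partners 7 fell and 4 rose. Ddit3 (ENSMUSG00000025408.15), which encodes CHOP, had -4.78 ± 0.14, Wfs1, an ER membrane protein gene, -1.75 ± 0.08, Ppp1r15a, the phosphatase subunit that reverses PERK signalling, -1.14 ± 0.09, and Atf4, the transcription factor downstream of PERK, -0.93 ± 0.13. The ER membrane protein gene Lrrc59 rose with 0.68 ± 0.07 and the IRE1 adaptor gene Traf2 with 0.61 ± 0.11.

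**Figure D4:**
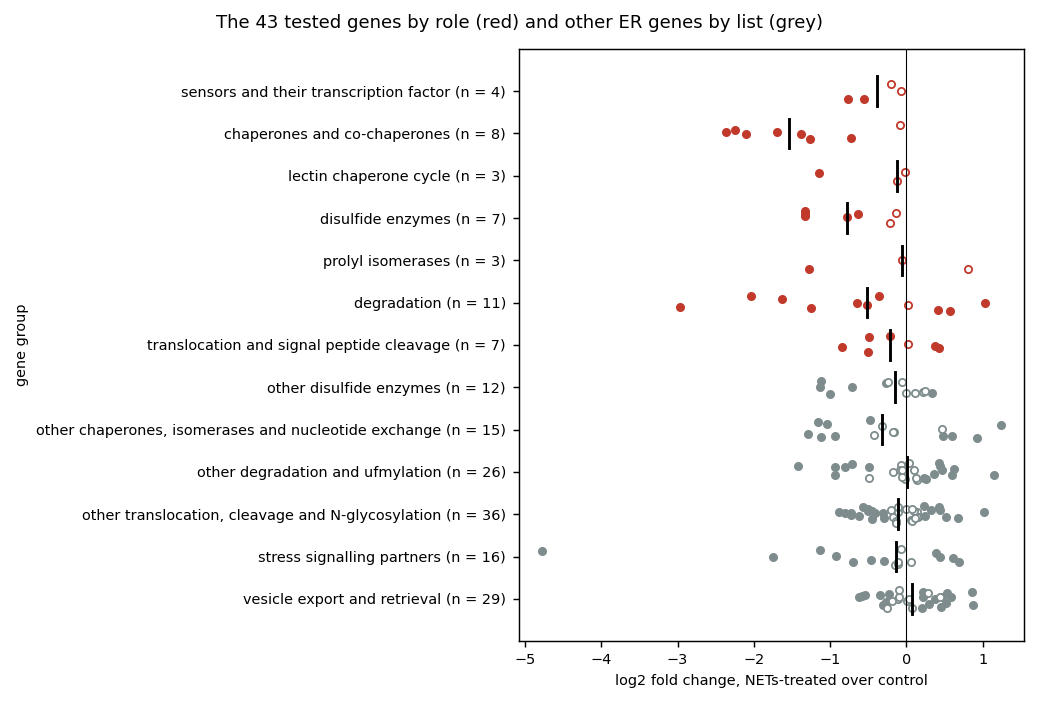
Log2 fold change of NETs-treated over control cells (x axis) for the 43 tested genes by role (red) and for the other ER genes by list (grey), with the number of tested genes in brackets; filled points passed an adjusted p of 0.05 and black bars are medians. The chaperone median is at -1.54, and the medians of the grey lists lie between -0.32 and 0.07.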

How the data were processed

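RNA-seq libraries of 3 control and 3 NETs-treated samples were compared, grouped by the treatment in the labels. The labels' protocols describe strand-specific libraries. HISAT2, DESeq2 and the builds mm10 and rn6 appear, with no role given, in the submitters' processing notes. How reads were assigned to genes, with which annotation and whether by strand, is not given in the sources used here. The authors deposited 1 table with raw counts, a normalised signal per sample (checked to be the count over a single factor for each sample), log2 fold changes, and raw and adjusted p-values.

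The raw counts were tested with edgeR 4.0.16 in R 4.3.3 (quasi-likelihood, two-sided, TMM scaling, no covariates, filter with minimum count 10 and minimum total 15), with Benjamini-Hochberg adjustment over 15272 genes, which held 99.9% of the counts. SEs come from the fold change and its F statistic. CPM and RPKM were computed here with TMM scaling and GENCODE M21 exon lengths. In simulated counts for this comparison (NETs-treated over control; 14891 genes passed the filter), 64% of 2-fold and 31% of 1.5-fold changes were recovered, and 6 of 14695 unchanged genes were called. Library pairs of a group differed beyond sampling noise (chi-square per gene 9.77 to 77.2), and each counted as 1 sample. Such differences do not show that the libraries came from independent cultures or mice.

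The 44 genes were set by symbol, not by a threshold on values, but they and the roles, lists and rules for named genes were chosen with earlier results of these data known. All 44 genes are accounted for; values per library are given for Hspa5, Hsp90b1, Calr, Xbp1, Herpud1, the most changed gene of each role, all that rose and all that did not pass. Of each other list, up to 4 called genes with the largest change and up to 2 against the majority were named, with a mean of at least 10 CPM. Alternatives were other scalings, DESeq2 1.42.0, limma-voom (limma 3.58.1), other filters, a replicate block, each sample left out, and the authors' deposited log2 fold changes. A planned look at protein ends was not made, and some marker genes are not reported here. Exons of 3 of the 44 genes overlap another gene on the same strand and those of 13 a gene on the other, and reads of such pairs may not be told apart.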

Additional observations from a re-analysis of the deposited data

How the results depend on the processing

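Under all 15 alternatives the number of the ER genes called lower stayed between 25 and 31 and the number called higher between 4 and 6, and no gene of the set changed direction past the threshold. Of 43 tested genes, 34 kept their call throughout; the others are Os9, Sec61a1, Sec61b, Ssr3, Eif2ak3, Canx, P4hb, Dnajc10 and Fkbp14, with values beside their results. The authors' deposited table also gave 27 lower and 5 higher. Over all genes tested the count of calls ran from 6716 to 8497.

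The median log2 fold change of the set was -0.63 with scaling by library size only, -0.60 with no filter on low counts and -0.53 with a filter of 1 CPM in at least 3 samples, and -0.59 to -0.53 with 1 sample left out. Library size only gave role medians of -0.46 for sensors, -0.86 for disulfide enzymes, -0.60 for degradation and -0.29 for translocation, and 2 lectin genes lower. The filter of 1 CPM gave -0.75 for disulfide enzymes, no filter gave -0.59 for degradation, and the Wald test of DESeq2 called 1 prolyl isomerase gene, Fkbp14, higher. With 1 sample left out, the medians ran from -0.81 to -0.75 for disulfide enzymes and -0.59 to -0.42 for degradation, 0 to 1 prolyl isomerase gene was called higher, and 1 to 2 translocation genes were called higher, with 1 without control replicate 1 or 2. The median over all genes was 0.022 with no filter and 0.016 with the filter of 1 CPM, and -0.09 with library size only. Scaling by library size only leaves out the TMM factors, which were 1.03 in each control library and 0.97 to 0.98 in the NETs-treated ones. With no filter 44 genes of the set were tested, Derl3 being the added one. The cause of the other shifts was not tested.

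The replicate numbers of the labels do not say what same-numbered samples share. Deviations of same-numbered samples correlated at 0.21, 0.03 and 0.08. NETs-treated replicate 1 correlated best with the control of its own number, and replicates 2 and 3 each with a control of another number (0.05 and 0.08). For replicate 3 the same-numbered value was nearly as high (0.076 against 0.079). With 3 samples per group, these values cannot show whether same-numbered samples share more than a number. With the replicate number as a block, 28 genes of the set were lower and 5 higher, Dnajc10 being the added one (edgeR adjusted p = 0.0338), and 8105 genes were called in all. In this set 10 genes with changes below 1.5-fold passed, and the SEs of the genes that did not pass ran from 0.06 (Ern1, P4hb) to 0.32 (Fkbp14) on the log2 scale. The SEs cover the spread among these samples as well as counting error, and no other source of variation.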

Other observations

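The NETs-treated libraries did not order the 43 tested genes alike. NETs-treated replicate 3 was the highest of its group for 22 of them, among them Spcs3, Ssr3, Edem3 and Dnajb9, and replicate 1 for 14, among them Calr, Pdia4, Manf, Fkbp2 and Os9. The lowest value of the group was in NETs-treated replicate 1 for 22 genes, in replicate 2 for 8 and in replicate 3 for 13. The median SD of log2 CPM over the 43 genes was 0.12 among NETs-treated and 0.05 among control libraries, where over all genes tested it was 0.18 and 0.11. The spread among NETs-treated libraries, as SD over mean, was largest for Fkbp2 (40.4%), Dnajb9 (29.9%), Os9 (27.2%), Selenos (26.4%) and Fkbp14 (26.2%), and smallest for Ern1 (0.937%) and Sel1l (1.77%).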
